A study of Saccharomyces cerevisiae with 8 samples.

Results

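The 32 nuclear genes named MRPL3 to MRPL51, which encode proteins of the large subunit of the mitochondrial ribosome of Saccharomyces cerevisiae, were followed in RNA-seq libraries of histone mutants. They are a list of genes with MRPL names, given by systematic name under a rule that uses no measured value, and make up 32 of the 6600 features counted in each library. Not every large-subunit gene carries an MRPL name, and MRPL39, whose number falls in this range, is among the 12 other genes of the same subunit counted below.

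Total RNA was sequenced from cultures of 5 strains grown in YPD, a rich glucose medium, at 30 degrees for 16 h, a time that the study describes as late log phase. The strains came from a library in which residues of histones H3 and H4 are substituted, and the question put to the RNA was which transcription programme comes before the long survival of such mutants in stationary phase. H4K16Q carries glutamine in place of lysine in the tail of H4 (2 libraries), H4H18A carries alanine in place of histidine in the same tail (2 libraries), and their control is the WT strain labelled H4 (WT H4, 2 libraries). H3E50A carries alanine in place of glutamate in H3 (1 library), and its control is the WT strain labelled H3 (WT H3, 1 library). All 5 strains share the haploid MATa background JDY86, in which the gene pair HHT1-HHF1 is deleted and the remaining pair is replaced by a cassette with a WT or mutated histone and URA3. The strain labels of the H4K16Q and H4H18A libraries name H3 instead of H4, while the design of the series names H4, which is used here. Counts per gene cannot show a point mutation, and the deleted pair had between 12 and 4609 counts in every library. Whether these reads came from the histone cassette was not tested.

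The mitochondrial ribosome sits in the mitochondrial matrix and translates the few messages of the mitochondrial genome, nearly all of which encode subunits of the respiratory chain and of the ATP synthase. Its proteins are almost all encoded in the nucleus, made in the cytosol and imported, so that their messages have to be matched to an RNA core that is made in the organelle. Glucose represses respiration in this yeast, and the genes of the mitochondrial ribosome are known for changing together when cells turn from fermentation to respiration. Many of their messages are bound in the 3′ untranslated region by Puf3, an RNA-binding protein that acts on the stability and translation of messages for mitochondrial proteins.

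Of the 32 proteins, 13 belong to families found in all domains of life, 6 to families shared with bacteria, and 13 are specific to mitochondria. Their RefSeq coding sequences (assembly R64, which is also the build of the counts) lie on 12 chromosomes and encode between 86 residues (MRPL33) and 390 residues (MRPL3), with a median of 204.5. Only MRPL44 has more than 1 coding exon, and it has 2.

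A feature that the list did not use is the core of the Puf3 site, TGTANATA in DNA letters. It was searched on the sense strand in the 200 bases after the stop codon, where 32 of 32 members (100%) hold it, against 844 of 6001 nuclear protein-coding genes (14.1%). In all there were 39 cores, with 7 members holding 2. The windows below belong to members whose RNA values are described later, except that of MRPL3, which holds the only G core. The search fixes every base of the core but the free one, so the windows show that base and the bases around the core. Each has 30 bases read 5′ to 3′ on the strand of the gene, from RefSeq R64, with the core in capitals. Of the 7 members with 2 cores, MRPL19, MRPL24, MRPL36, MRPL49 and MRPL3 are shown with 1, named as the first or second after the stop codon, and the second core of MRPL19 lies within its window in lower case. In the first 5 the free position of the core is A.
MRPL25, chrVII:637008-637037, minus strand: atgtctaatcaTGTAAATAattttgtgata
MRPL22, chrXIV:303532-303561, minus strand: tattgtgattcTGTAAATAacaactagttt
MRPL19, first core, chrXIV:292088-292117, minus strand: ctgatctattcTGTAAATAtgtatataagt
MRPL37, chrII:741638-741667, plus strand: tttggtatcctTGTAAATAaatatgtgtgt
MRPL49, second core, chrX:247005-247034, plus strand: gtataaaatcaTGTAAATAacaataaaatt
In the following 4 it is T.
MRPL31, chrXI:185225-185254, minus strand: aaaatttcatcTGTATATAgtttaatcatt
MRPL24, first core, chrXIII:650856-650885, plus strand: tggttttccccTGTATATAaaaaagcatat
MRPL16, chrII:146900-146929, plus strand: ccatgtatacaTGTATATAactattgaaaa
MRPL36, first core, chrII:483850-483879, minus strand: ataaacagcctTGTATATAccgcaacatat
In the next 2 it is C, and in the last it is G, the only such core among the members.
MRPL9, chrVII:936023-936052, minus strand: tactacaatcaTGTACATAcatcaataata
MRPL35, chrIV:1111710-1111739, plus strand: ttatagtatccTGTACATAtaaaataacgt
MRPL3, first core, chrXIII:323054-323083, plus strand: gtttgccatttTGTAGATAgagaactcctt

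Over the 39 cores the free position was A in 15, T in 14, C in 9 and G in 1. Puf3 is known to prefer a C 2 bases before the core, and 26 of the 32 members (81.2%) had a core with that C, against 227 of the 812 other genes that hold a core (28%). The first core began between 13 bases (MRPL49) and 136 bases (MRPL22) after the stop codon, with a median of 47.5. The core was also in 12 of 12 other large-subunit genes, in 31 of 32 small-subunit genes (96.9%) and in 10 of 14 genes of mitochondrial translation and ribosome assembly factors (71.4%). These matches describe the sequence and do not measure binding.

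**Figure D1:**
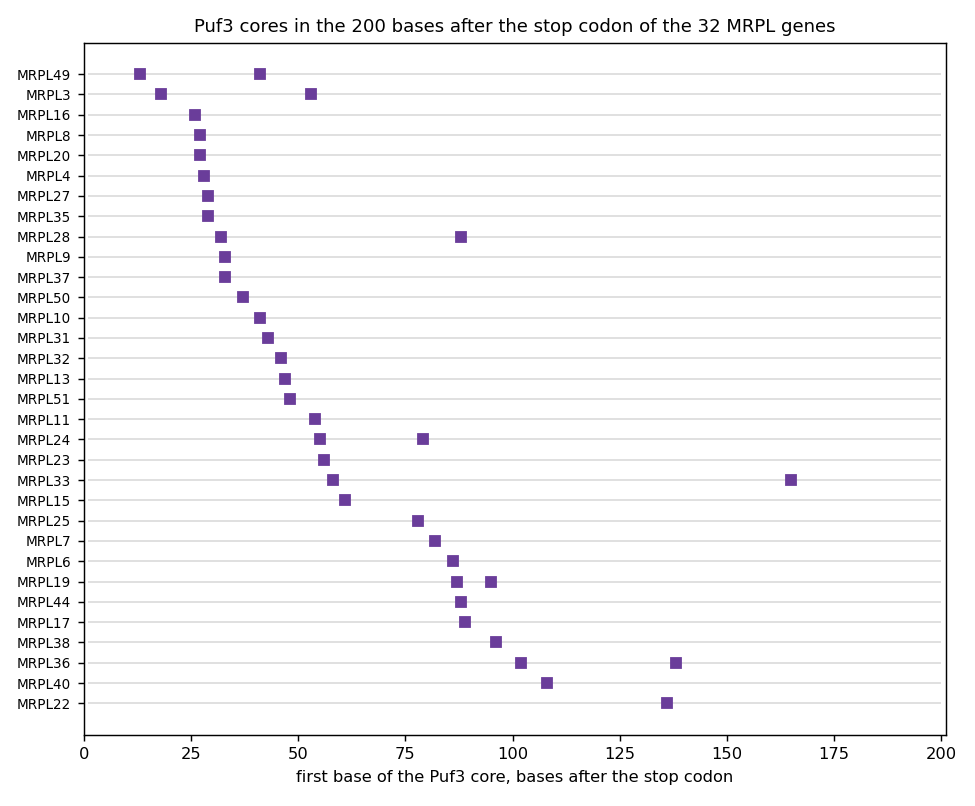
Position of each Puf3 core in the 32 MRPL genes. The x axis gives the first base of the core, in bases after the stop codon, each row is a gene and each square a core. Of the 39 cores, the nearest begins at base 13 and the farthest at base 165, and 7 genes have 2.

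Of the promoter motifs searched, none was shared by the members in this way. In the 250 bases before and 50 bases after the start of each gene, on both strands, CCAAT (the letters bound by the Hap complex, an activator of respiratory genes) was in 13 of 32 members (40.6%), against 43.3% of all nuclear protein-coding genes. AAAATTTT, the RRPE letters of ribosome biogenesis promoters, was in 1 of 32 (3.12%, against 9.03%), and GATGAG, the PAC letters of the same promoters, in 6 of 32 (18.8%, against 20.4%). None of these motifs contains another, and no match says only that the letters are not in this window.

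The depth of the libraries lay between 621770 counts (H4H18A replicate 1) and 10529401 counts (H4K16Q replicate 1), and the members took between 0.0774% and 0.170% of them, or 510 to 9940 counts in all. Levels are given in CPM, counts scaled to library size by TMM. A count of 0 allows up to 3 counts, which is 0.217 to 7.06 CPM depending on the library and covers counting error only. Libraries of the same strain stood apart. The Spearman correlation across 5962 genes was 0.900 between the H4K16Q replicates, 0.828 between the H4H18A replicates and 0.639 between the WT H4 replicates, which is the lowest of the 28 pairs of libraries, whereas WT H4 replicate 2 and WT H3 had the highest, 0.960. Ribosomal RNA features held 0.254% and 0.180% of all counts in the H4K16Q libraries and 16.3% and 33.6% in those of H4H18A, against 0.990% and 21.2% in those of WT H4. They held 1.88% in H3E50A, against 33.9% in WT H3. YGL088W alone held 1.39% and 3.55% of all counts in H4K16Q and 15.7% and 0.372% in H4H18A, against 22.9% and 1.14% in WT H4. In H4H18A and WT H4 replicate 1 thus had the higher share of YGL088W and the lower share of ribosomal RNA features. By Spearman correlation H4H18A replicate 2 stood nearer to WT H4 replicate 2 (0.945) than to H4H18A replicate 1 (0.828). CPM is a share of the library, so fewer MRPL messages per cell and more of other RNA cannot be told apart.

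Compared per length of coding sequence, the members stood near the middle of all genes. Their median was 47.0 CPM per kb over the 8 libraries, above the value of 61.5% of all genes, whose median was 34.0 CPM per kb. The highest were MRPL50 (YNR022C), a relative of bacterial L9, at 110.7 ± 42.3 CPM per kb, MRPL36 (YBR122C), of the L31 family and known to act on the translation of the COX2 message, at 107 ± 42.5 CPM per kb, and MRPL8 (YJL063C), of the L17 family, at 106 ± 44.9 CPM per kb (SD, n = 8 libraries). These 3 did not differ beyond their spread. The lowest were MRPL38 (YKL170W), of the L14 family, at 3.28 ± 3.34 CPM per kb, and MRPL51 (YPR100W), which is specific to mitochondria, at 6.45 ± 3.23 CPM per kb, followed by MRPL25 at 19.2 ± 13.2 CPM per kb (SD, n = 8 libraries).

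MRPL38 had 0.651 and 1.93 CPM in H4K16Q and 0 and 2.29 CPM in H4H18A, against 0 and 0.650 CPM in WT H4. Its level was 4.13 CPM in H3E50A, against 1.30 CPM in WT H3. MRPL51 had 2.75 and 2.38 CPM in H4K16Q and 0 and 4.59 CPM in H4H18A, against 3.23 and 1.95 CPM in WT H4, and 3.67 CPM in H3E50A, against 3.26 CPM in WT H3. Both genes had too few counts for the test in the H4 strains, which was run on the other 30 members, and they passed the filter over all 8 libraries. MRPL51 overlaps YPR099C over 323 of its 423 coding bases and MRPL19 overlaps YNL184C over 113, and whether the counting used strand is not given in the sources used here. YPR099C had 0 counts in every library and YNL184C at most 4. YGR219W and YKL169C, which by their names lie beside or over MRPL9 and MRPL38 on the opposite strand, have no position in the RefSeq table used, so their overlap was not measured. MRPL38 and MRPL51 were the lowest members per kb, and whether reads in such overlaps were left out of their counts was not tested. YGR219W had 0 counts in every library, and YKL169C had 4 in WT H4 replicate 1, where MRPL38 had 0, and at most 1 in the others.

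MRPL9 (YGR220C), of the L3 family, whose members reach towards the centre where peptide bonds are made, stood out by 1 library. It had 15.5 and 20.8 CPM in H4K16Q and 37.7 and 18.4 CPM in H4H18A, against 0 and 15.6 CPM in WT H4, and 36.2 CPM in H3E50A, against 14.98 CPM in WT H3. The value of 0 is that of WT H4 replicate 1, where the mean level of the other 7 libraries, 22.7 CPM, would give 105 counts. Of 4492 genes with a median of at least 15 CPM in the other libraries, 8 had 0 counts in that library.

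Across the 8 libraries the summed level of the 32 members was 719 and 995 CPM in H4K16Q and 1200 and 1013 CPM in H4H18A, against 1133 and 945 CPM in WT H4, and 1661 CPM in H3E50A, against 923 CPM in WT H3. The H3E50A library is the highest of these and H4K16Q replicate 1 the lowest, while the other sums of the H4 mutants and of WT H4 overlap. H3E50A gave the highest of the 8 values for 18 of 32 members, against 21.1% of all genes, and the lowest for 0. H4K16Q replicate 1 gave the lowest value for 9 members and WT H4 replicate 1 for 6. The share of all genes lowest in each library was not computed, so these numbers of lowest values cannot be read as particular to the members.

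**Figure D2:**
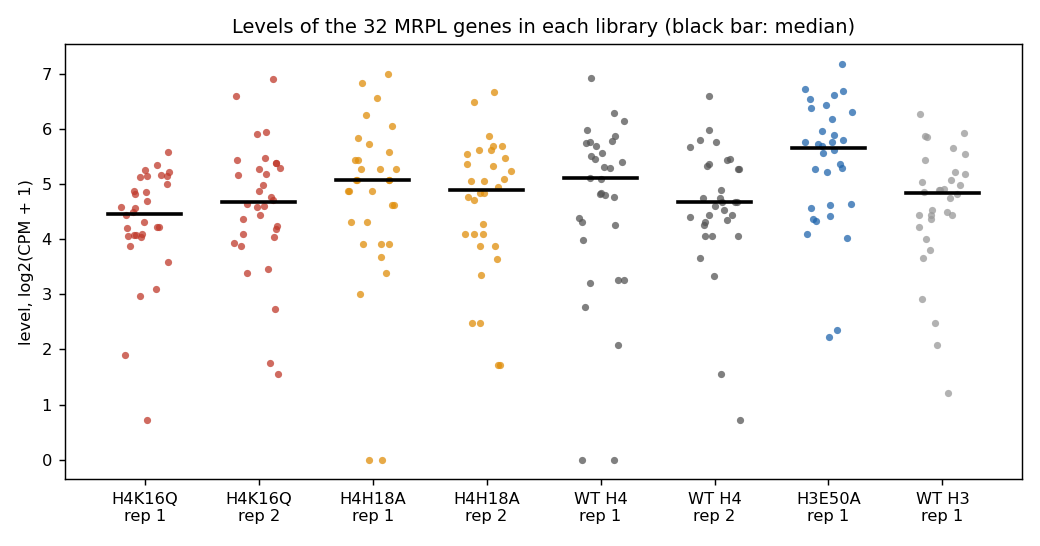
Level of each of the 32 MRPL genes in each library. The y axis is log2(CPM + 1), each point is a gene and the black bar is the median of the library. In CPM the medians of the H4K16Q libraries are 21.1 and 24.7 and those of H4H18A are 32.9 and 28.7, against 33.4 and 24.7 for WT H4, and the H3E50A library has 49.4, against 27.7 for WT H3.

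In H4K16Q relative to WT H4, more MRPL genes had lower than higher levels, but none passed the test. edgeR (quasi-likelihood, Benjamini-Hochberg) called 0 of 30 members (and 0 of 5669 genes, 0%), with a smallest adjusted p of 0.997 among the members. DESeq2 and edgeR's likelihood-ratio test also called 0 members, while without WT H4 replicate 2 edgeR's quasi-likelihood test called 1, MRPL9. At an unadjusted p under 0.05 there were 2 members, against 3.72% of all genes tested. The log2 fold change was below 0 for 21 of 30 members, against 55.6% of all genes, and its median was -0.15, against -0.10 over all genes. That split depended on the scaling, with 17 members below 0 under RLE size factors (52.5% of all genes), 27 under total counts only (63.8%) and 15 without the ribosomal RNA features (49.7%). The median of the members minus that of all genes was -0.053 under RLE size factors, -0.16 under total counts only and -0.051 without those features, against -0.053 with TMM. Both H4K16Q libraries lay below both WT H4 libraries for 9 members, against 17.9% of all genes, and above them for 2 members, against 12.8%.

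The members at an unadjusted p under 0.05 were MRPL22 and MRPL49. MRPL22 (YNL177C), of the L22 family, which lines the tunnel through which the new chain leaves the ribosome, had 27.1 and 28.4 CPM in H4K16Q, against 53.0 and 96.2 CPM in WT H4. The H4K16Q libraries were alike and lay below both WT H4 libraries, which differed from each other. The log2 fold change was -1.43 (SE 0.60, unadjusted p = 0.0407, adjusted p = 0.997 by edgeR with Benjamini-Hochberg adjustment). Leaving out the second WT H4 library gave -0.79, and leaving out the first gave -1.80. MRPL22 had 47.9 CPM in H3E50A, against 59.9 CPM in WT H3.

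MRPL49 (YJL096W), of the bacterial L21 family, had 11 and 14.3 CPM in H4K16Q, against 43.1 and 26.0 CPM in WT H4, again with no overlap. Its other values were 28.2 and 13.8 CPM in H4H18A, and 23.8 CPM in H3E50A, against 20.8 CPM in WT H3. The log2 fold change of MRPL49 in H4K16Q relative to WT H4 was -1.47 (SE 0.65, unadjusted p = 0.0476, adjusted p = 0.997 in the same edgeR test), the lowest of the 30. At the other end stood MRPL9, with a log2 fold change of 1.33 (SE 1.38), which is set by the library at 0 counts: without WT H4 replicate 1 it was 0.21. MRPL33 (YMR286W), of the L30 family and the shortest of the proteins, had 19.0 and 19.8 CPM in H4K16Q, against 8.62 and 11.7 CPM in WT H4. The H4K16Q libraries did not overlap with those of WT H4, and the log2 fold change was 0.93 (SE 0.70). In edgeR's test MRPL9 and MRPL33 also had an adjusted p of 0.997. MRPL33 had 20.4 CPM in H3E50A, against 22.1 CPM in WT H3, both above its H4K16Q values. With WT H3 and WT H4 together as the control, the log2 fold changes in H4K16Q were -1.34 for MRPL22, -1.28 for MRPL49, 0.89 for MRPL9 and 0.45 for MRPL33.

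By family, the median log2 fold change in H4K16Q relative to WT H4 was -0.13 for the universal members, -0.37 for the bacterial ones and -0.10 for the mitochondria-specific ones. It was -0.13 for the other large-subunit genes, with 8 of 12 below 0, and -0.26 for the translation and assembly factors, with 8 of 14 below 0. The small-subunit genes had a median of -0.55, with 28 of 32 below 0, and in 15 of them both H4K16Q libraries lay below both WT H4 libraries, against 17.9% of all genes. With a library left out, a choice made after seeing the data, their median was between -0.64 (without H4K16Q replicate 2) and -0.32 (without WT H4 replicate 1). edgeR's test called 0 genes in each of these lists, and the small-subunit list held 1 gene at an unadjusted p under 0.05. The median of the MRPL genes moved with single libraries. Leaving out H4K16Q replicate 1 gave -0.0076, leaving out H4K16Q replicate 2 gave -0.48, and leaving out H4H18A replicate 2, which enters the shared fit, gave 0.060.

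In H4H18A relative to WT H4, MRPL genes were found on either side of 0 in near-equal numbers. This comparison shares its WT H4 libraries with that of H4K16Q. edgeR (quasi-likelihood, Benjamini-Hochberg) called 0 of 30 members (0% of all genes), with a smallest adjusted p of 0.999, and DESeq2 and the likelihood-ratio test called 0. Here too MRPL9 alone, 1 of the members, was called without WT H4 replicate 2. At an unadjusted p under 0.05 there was 1 member, against 2.22% of all genes. The log2 fold change was above 0 for 16 members and below 0 for 14, while 55.6% of all genes were below 0. Its median was 0.02 for the members, against -0.09 over all genes. With total counts only the log2 fold change was below 0 for 24 members and for 80.2% of all genes. Both H4H18A libraries lay above both WT H4 libraries for 7 members, against 10.3% of all genes, and below them for 6, against 15.8%.

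MRPL31 (YKL138C), a mitochondria-specific protein, had 14.1 and 4.59 CPM in H4H18A, against 46.3 and 19.5 CPM in WT H4. Both H4H18A libraries were below both WT H4 libraries, though the libraries of each strain were more than 2-fold apart. The H4H18A values rest on 6 and 4 counts, near the limit of 3 counts, which is 7.06 CPM in replicate 1 and 3.44 CPM in replicate 2. The log2 fold change was -1.94 (SE 0.83, unadjusted p = 0.0429, adjusted p = 0.999 by edgeR with Benjamini-Hochberg adjustment). Leaving out H4H18A replicate 1 gave -2.85, leaving out H4H18A replicate 2 gave -1.18, and leaving out WT H4 replicate 1 gave -1.17. In H4K16Q, MRPL31 had 17.6 and 16.1 CPM. WT H3 had 13.02 CPM, which is within the range of the H4H18A libraries. With WT H3 and WT H4 together as the control, the H4H18A value was -1.63.

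MRPL25 (YGR076C), also known as AFO1, is a mitochondria-specific protein whose deletion is known to lengthen the replicative lifespan of yeast. It had 7.06 and 2.29 CPM in H4H18A and 6.80 and 5.65 CPM in H4K16Q, against 18.1 and 9.10 CPM in WT H4. All 4 libraries of the H4 mutants were below both WT H4 libraries, and the share of all genes with this pattern was not computed. WT H3 had 4.56 CPM, within the range of the H4 mutant libraries. The H4H18A values are near the limit of 3 counts, which is 7.06 CPM in replicate 1 and 3.44 CPM in replicate 2. The log2 fold change was -1.69 (SE 1.07) in H4H18A and -1.15 (SE 0.90) in H4K16Q, each relative to WT H4, with adjusted p = 0.999 in H4H18A and adjusted p = 0.997 in H4K16Q by edgeR's test. Leaving out H4H18A replicate 1 moved the H4H18A value to -2.57, H4H18A replicate 2 to -0.90, and WT H4 replicate 1 to -1.10. With WT H3 and WT H4 together as the control, the H4H18A value was -1.35.

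The members with the highest log2 fold changes in H4H18A were the same pair as in H4K16Q, set against the same WT H4 libraries. MRPL9 had a log2 fold change of 1.94 (SE 1.45), which was 0.82 without the WT H4 library at 0 counts. MRPL33 had 32.9 and 13.8 CPM in H4H18A, against 8.62 and 11.7 CPM in WT H4, and a log2 fold change of 1.17 (SE 0.74), which was 0.45 without H4H18A replicate 1 and 1.77 without H4H18A replicate 2. Neither passed edgeR's test, with adjusted p = 0.999 for both. The median was -0.03 for the other large-subunit genes, -0.18 for the small-subunit genes and -0.26 for the factors, with 0 genes called in each list, and with 0, 1 and 1 genes at an unadjusted p under 0.05 in that order.

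**Figure D3:**
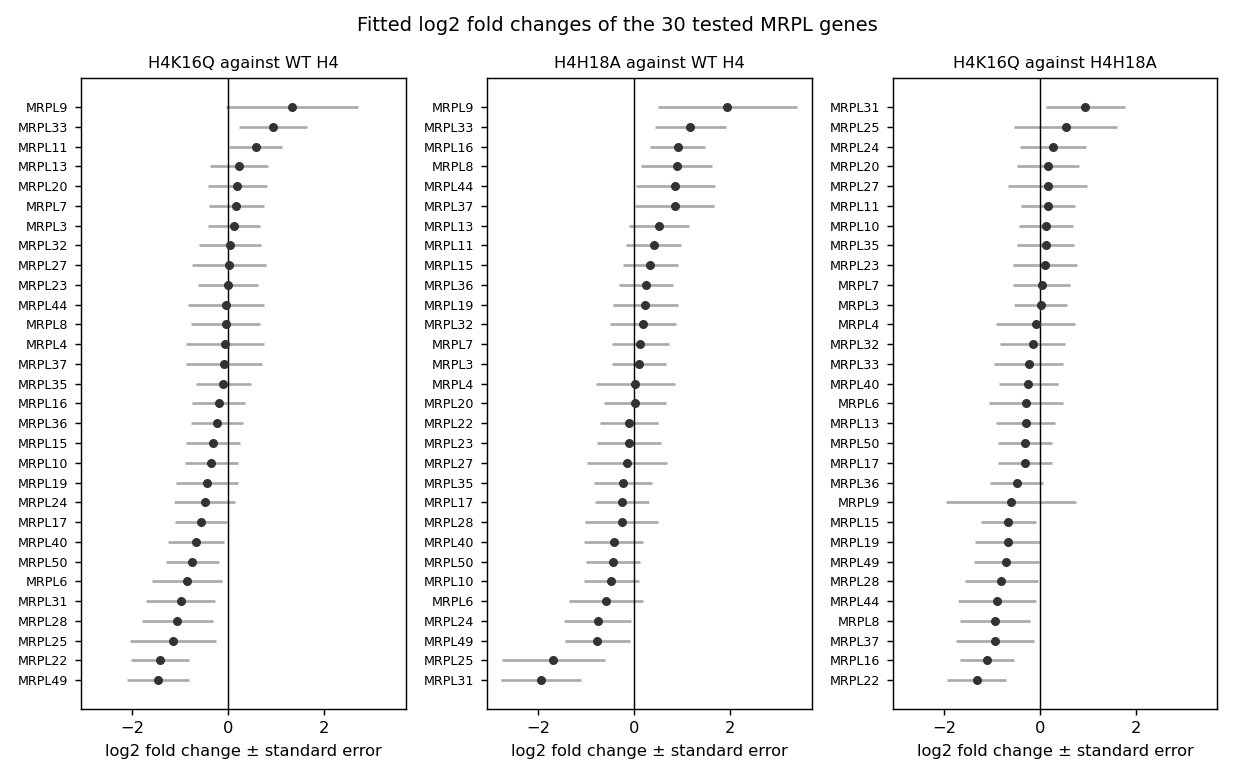
Log2 fold changes of the 30 MRPL genes tested in the H4 strains, as fitted by edgeR, in 3 comparisons. Points are fitted values, bars are standard errors, and genes are sorted within each panel. The medians are -0.15 (H4K16Q against WT H4), 0.02 (H4H18A against WT H4) and -0.26 (between the mutants, H4K16Q against H4H18A), and in each panel 0 genes have an adjusted p under 0.05.

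The direct comparison of the H4 mutants does not use the WT H4 libraries as a control. In H4K16Q relative to H4H18A, 19 of 30 members had a log2 fold change below 0, against 45.0% of all genes, and the median was -0.26, against 0.07 over all genes. edgeR (quasi-likelihood, Benjamini-Hochberg) called 0 members (0% of all genes), and DESeq2 and the likelihood-ratio test did likewise. No member, or 0 of 30, had an unadjusted p under 0.05, against 1.55% of all genes. Both H4K16Q libraries lay below both H4H18A libraries for 10 members, against 11% of all genes, and above them for 2, against 14.9%. With total counts only, 14 members and 27.8% of all genes were below 0 and the median was 0.11, while that of all genes was 0.36, and the median was -0.028 with TMM when H4K16Q replicate 1 was left out.

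MRPL22 had the lowest value of this comparison, with 27.1 and 28.4 CPM in H4K16Q, against 47.1 and 89.5 CPM in H4H18A, and a log2 fold change of -1.32 (SE 0.61). The libraries did not overlap, and those of H4H18A differed between themselves, with a fold change of -0.67 on the log2 scale when H4H18A replicate 2 was left out. MRPL16 (YBL038W), of the L16 family near the peptide-bond centre, had 39.9 and 30.6 CPM in H4K16Q, against 94.1 and 57.3 CPM in H4H18A, and a log2 fold change of -1.10 (SE 0.57), or -0.70 without H4H18A replicate 1. It had 38.2 and 42.2 CPM in WT H4, which overlap the H4K16Q values. In H3E50A it had 102 CPM, against 35.2 CPM in WT H3. The highest were MRPL31, at 0.94 (SE 0.82), and MRPL25, at 0.53 (SE 1.07), both low in H4H18A replicate 2. Without that library MRPL31 was at 0.35 and MRPL25 at -0.09, and without H4H18A replicate 1 they were at 1.87 and 1.44. None of these 4 passed edgeR's test.

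Replicates of a strain differed in the levels of the members. Over the 30 members tested, the median absolute difference of log2(CPM + 1) between replicates was 0.34 in H4K16Q and 0.49 in H4H18A, against 0.58 in WT H4. In CPM, 4 members were at least 2-fold apart in H4K16Q and 10 in H4H18A, against 9 in WT H4. The same values over all genes were not computed, so this spread cannot be read as particular to the members. The H4H18A libraries were also the shallowest, with 621770 and 852659 counts, and the part of depth in the spread was not tested. In H4K16Q the member with the greatest difference was MRPL8, at 22.9 and 96.7 CPM, and its other values were 127 and 100.9 CPM in H4H18A, against 69.8 and 53.3 CPM in WT H4, with 61.2 CPM in H3E50A, against 76.8 CPM in WT H3.

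In H3E50A relative to WT H3, MRPL genes were mostly higher, and with 1 library of each strain the difference has no replicate check and no test. The log2 ratio of CPM (prior count 2) was above 0 for 25 of 32 members and its median was 1.02, against 0 over all 5962 genes. At least 2-fold higher were 16 members, against 22.1% of all genes, and at least 2-fold lower was 1, against 23.2%. The 95% counting interval of the ratio (exact, from the binomial distribution of the counts, with the scaling taken as known) was above 1 for 19 members, against 34.7% of 5907 genes with a count in either library, and below 1 for 2, against 34.4%. These intervals compare 2 libraries and not 2 strains. The Spearman correlation between H3E50A and WT H3 was 0.768 across 5962 genes, above the 0.639 between the WT H4 replicates. Libraries of 1 WT strain thus stood further apart than this pair.

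MRPL24 (YMR193W), of the bacterial L28 family, led these members with 54.6 CPM in H3E50A, against 11.7 CPM in WT H3. From 238 and 18 counts the ratio was 4.66 (95% counting interval 2.88 to 7.99), or 2.17 as the log2 ratio with the prior count. The other libraries had 20.6 and 13.7 CPM in H4K16Q, 11.8 and 16.1 CPM in H4H18A, and 27.6 and 20.1 CPM in WT H4, so that the H3E50A value was the highest of 8. MRPL25 had 19.3 CPM in H3E50A, against 4.56 CPM in WT H3, a ratio of 4.23 (1.96 to 10.8) and a log2 ratio of 1.97, and its H3E50A value was close to the 18.1 CPM of WT H4 replicate 1.

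The lower end was led by MRPL19 (YNL185C), of the L11 family at the base of the stalk where translation factors bind. It had 15.4 CPM in H3E50A, against 32.6 CPM in WT H3, a ratio of 0.472 (0.322 to 0.695) and a log2 ratio of -1.06. In the H4 strains it had 15.9 and 17.1 CPM in H4K16Q and 14.1 and 36.7 CPM in H4H18A, against 20.1 and 24.7 CPM in WT H4. MRPL37 (YBR268W), which is specific to mitochondria, had 19.7 CPM in H3E50A, against 26.0 CPM in WT H3, a ratio of 0.757 (0.514 to 1.13) and a log2 ratio of -0.39. Its values in the H4 strains were 7.52 and 18 CPM in H4K16Q and 14.1 and 33.3 CPM in H4H18A, against 8.62 and 18.8 CPM in WT H4, so that both mutants overlapped with WT H4.

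**Figure D4:**
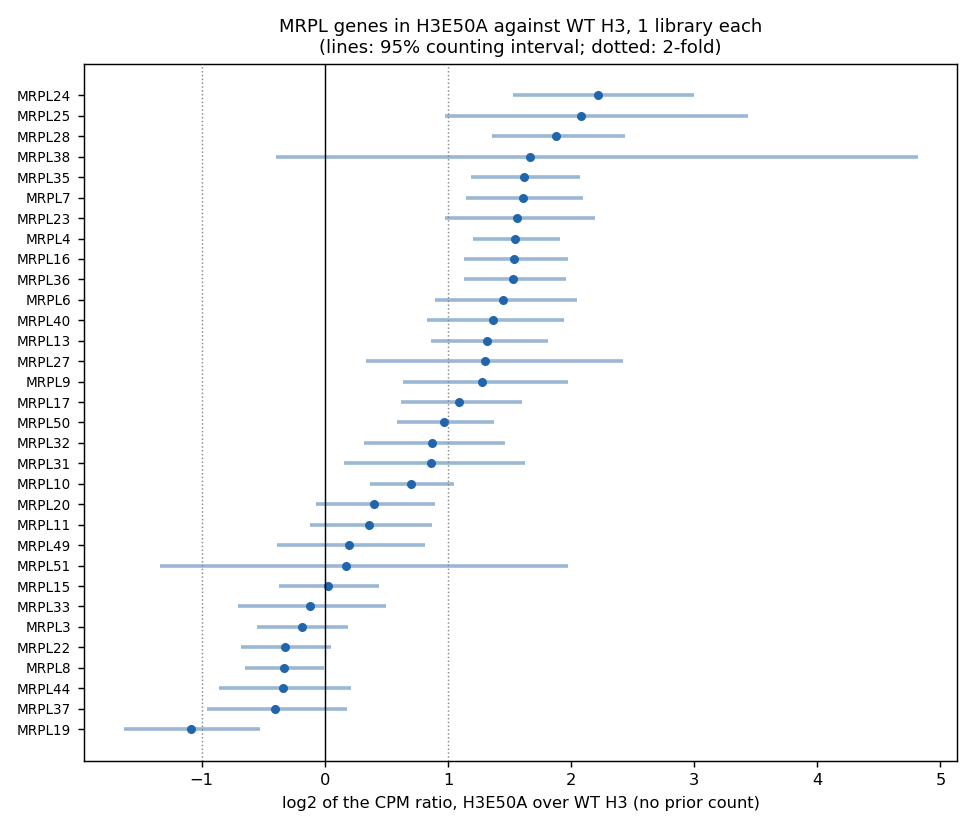
Ratio of CPM in H3E50A over WT H3 for the 32 MRPL genes. The x axis is the log2 of the ratio with no prior count, lines are 95% counting intervals and dotted lines mark a 2-fold difference. The interval lies above a ratio of 1 for 19 genes and below it for 2, with 1 library of each strain.

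MRPL36 had 105 CPM in H3E50A, against 36.5 CPM in WT H3, and 47.2 and 40.9 CPM in H4K16Q and 75.3 and 48.2 CPM in H4H18A, against 53.5 and 50.04 CPM in WT H4. MRPL35 (YDR322W), linked to the assembly of cytochrome c oxidase, had 97.7 CPM in H3E50A, against 31.9 CPM in WT H3. It varied little among the H4 mutants, with 36.2 and 35.0 CPM in H4K16Q and 32.9 and 32.1 CPM in H4H18A, against 50.7 and 24.7 CPM in WT H4.

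MRPL32 (YCR003W), which is matured by the m-AAA protease of the inner membrane before it joins the ribosome, had 38.1 CPM in H3E50A, against 20.8 CPM in WT H3. In the H4 strains it had 15.9 and 15.5 CPM in H4K16Q and 18.8 and 16.1 CPM in H4H18A, against 14.9 and 15.6 CPM in WT H4, a range that does not reach the H3E50A value. MRPL50 had 83.0 CPM in H3E50A, against 42.3 CPM in WT H3, and its other values were 27.9 and 35.5 CPM in H4K16Q and 37.7 and 40.1 CPM in H4H18A, against 62.5 and 42.9 CPM in WT H4.

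By family, the median log2 ratio in H3E50A relative to WT H3 was 1.34 for the universal members, 0.91 for the bacterial ones and 0.84 for the mitochondria-specific ones. Related genes were on the same side, with a median of 1.07 for the other large-subunit genes (12 of 12 above 0), 0.95 for the small-subunit genes (29 of 32) and 0.89 for the translation and assembly factors (13 of 14). Genes with a Puf3 core outside the MRPL set had a median log2 ratio of 0.24 (n = 800), against -0.04 for genes without one (n = 4884). The same pair of medians was -0.19 (n = 796) against -0.08 (n = 4733) in H4K16Q relative to WT H4, and -0.11 against -0.08 in H4H18A relative to WT H4.

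**Figure D5:**
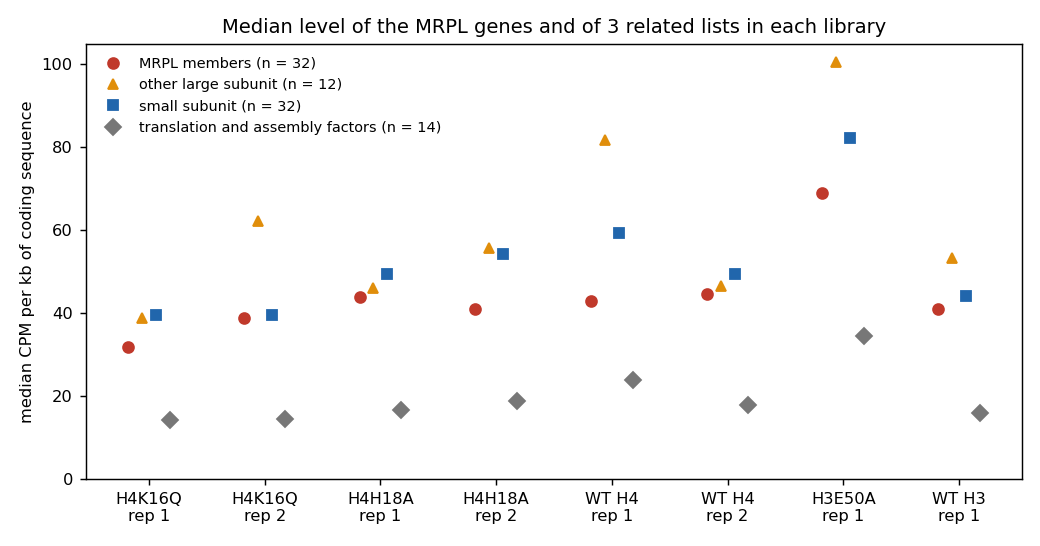
Median level of the 32 MRPL genes and of 3 related lists in each library, in CPM per kb of coding sequence. Each point is the median over the genes of a list, with the number of genes in the legend. In H3E50A the medians are 68.9 for the MRPL genes, 101 for the other large-subunit genes, 82.3 for the small-subunit genes and 34.6 for the factors, each the highest of the 8 libraries.

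The share of ribosomal RNA features moved with this comparison, at 1.88% in H3E50A, against 33.9% in WT H3. Without these features in the library size the median log2 ratio was 1.01 and 16 members were at least 2-fold higher. With WT H4 replicate 1 as the control, a library with 0.990% of its counts on these features that was chosen after seeing the data, the median was 0.64 against 0.10 over all genes, and 10 members were at least 2-fold higher. In that control 22.9% of all counts fell on YGL088W, against 3.82% in H3E50A and 1.07% in WT H3, and the part of this share in the result was not tested. The log2 ratio was then 0.97 for MRPL24, 0.09 for MRPL25, -0.37 for MRPL19 and 1.15 for MRPL37.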

How the data were processed

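Total RNA of 8 cultures was prepared with a stranded kit. The authors trimmed the reads with Trim Galore, mapped them to R64 with RNA STAR and deposited whole-number counts per gene from featureCounts, without normalization. Tool versions and the strand setting are not given in the sources used here. The authors' deposited edgeR tables, with fold changes and p-values of single mutant and WT libraries, were not used. The study states that replicates were prepared independently, and p-values measure the spread between these libraries only.

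All 6 libraries with an H4 label or mutation entered 1 fit in R 4.3.3 with edgeR 4.0.16 (filterByExpr with minimum count 10 and minimum total count 15, TMM, quasi-likelihood test, Benjamini-Hochberg adjustment over 5669 genes, threshold 0.05). The code was first run on simulated counts. Their spread was set in advance and not matched to these libraries, so that run does not show how many changes the test would miss here. Levels in CPM and the log2 ratios of H3E50A over WT H3 (prior count 2) were scaled by TMM over 5962 genes of 8 libraries. Of the 6600 features, 5917 matched a RefSeq locus tag, and 11 overlap ribosomal RNA genes. Motifs were counted over 6001 nuclear protein-coding genes.

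Members, gene lists and tests were chosen with earlier results of these data known. Full values were given for the 3 highest and 2 lowest members per kb, the 2 highest and 2 lowest of each comparison, those at an unadjusted p under 0.05, and MRPL25, MRPL32, MRPL35 and MRPL36. MRPL3 was added for its core sequence after it was seen. The alternatives were DESeq2 1.42.0, the likelihood-ratio test, other scalings, filters, libraries and prior counts, a replicate block, and each library left out.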

Additional observations from a re-analysis of the deposited data

Results flagged for a closer look

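For some members every library of H3E50A lay on one side of WT H3 while every library of an H4 mutant lay on the other side of WT H4. The difference between the 2 log2 effects (H3E50A against WT H3 minus the H4 mutant against WT H4) was not tested, rests on 1 library each of H3E50A and WT H3, and the comparisons with H4K16Q and H4H18A share both sets of WT libraries. Such opposite sides were found for 8 of 30 members in each comparison, against 14.9% of 5669 genes with H4K16Q and 14.7% with H4H18A. The counting interval of the H3E50A ratio held 1 for MRPL49 (0.763 to 1.76) and MRPL33 (0.614 to 1.41).

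Set against H4K16Q, the difference was 3.12 for MRPL25, 2.29 for MRPL6, 1.83 for MRPL31, 1.76 for MRPL36, 1.71 for MRPL50, 1.66 for MRPL49 and 1.64 for MRPL17, all with the higher effect in H3E50A. It was -1.05 for MRPL33, whose levels lay below WT H3 in H3E50A and above WT H4 in H4K16Q.

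Set against H4H18A, it was 3.66 for MRPL25, 2.94 for MRPL24, 2.77 for MRPL31, 1.40 for MRPL50, 1.33 for MRPL17 and 1.17 for MRPL10. MRPL33, at -1.29, and MRPL8, at -1.21, had the lower effect in H3E50A.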

How the results depend on the processing

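No member passed the test in the H4 strains under other tests, scalings, filters or controls, and 1 did when WT H4 replicate 2 was left out. The number of members called was between 0 and 1 for H4K16Q, and between 0 and 1 for H4H18A, over the libraries left out. The member was MRPL9, with an adjusted p of 0.0239 in H4K16Q and 0.0348 in H4H18A in edgeR's quasi-likelihood test, when the only WT H4 library left had 0 counts. That lone library is assumed in the fit to vary like the other groups, and the library left out had 15.6 CPM of MRPL9.

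The median log2 fold change ranged from -0.48 to 0.060 in H4K16Q relative to WT H4 when a library was left out, and from -0.44 to -0.028 in H4K16Q relative to H4H18A. That of MRPL25 in H4K16Q relative to H4H18A ranged from -0.088 (without H4H18A replicate 2) to 1.44. With total counts only, the 3 medians were -0.42 in H4K16Q and -0.45 in H4H18A, relative to WT H4, and 0.11 in H4K16Q relative to H4H18A, while the medians of all genes moved to -0.26, -0.56 and 0.36. The members thus lay at -0.16, 0.11 and -0.25 relative to all genes, and at -0.05, 0.11 and -0.33 with TMM. With WT H4 replicate 1 as the control of H3E50A, the median was 0.64, with 10 members at least 2-fold higher and MRPL37 at 1.15. Of 212 values of single members under alternatives, 210 kept their direction. These are values of the 2 highest and 2 lowest members of each comparison, picked for their values in these same data. Most alternatives refit the same counts, so this count does not test how stable the directions are.

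Over all genes, edgeR's quasi-likelihood test called 0 in each comparison of the H4 strains. DESeq2 called 15 in H4K16Q and 0 in H4H18A, relative to WT H4, and 6 in H4K16Q relative to H4H18A, the likelihood-ratio test called 5, 0 and 5 in the same order, and without WT H4 replicate 2 the quasi-likelihood test called 58 in H4K16Q and 13 in H4H18A. With a replicate block the medians of the members were -0.22, 0.02 and -0.23 and 0 members were called. Deviations of same-numbered libraries correlated across genes at -0.01 (H4K16Q and H4H18A), 0.10 (H4K16Q and WT H4) and 0.41 (H4H18A and WT H4). The main fit did not take the numbers to pair the libraries. For H4H18A and WT H4 the replicates of the same number did share part of their deviations, and where this came from was not tested.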
